A study of Mus musculus with 20 samples.

Results

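The mitochondrial ribosomal proteins were followed here in ribosome footprints of mouse embryonic stem cells (mESCs). Members were taken by name, as every gene of the deposited count table whose symbol begins with Mrpl or Mrps and a number. This gave 78 of 22416 gene names, 49 named for the large subunit and 29 for the small one. All 78 passed the filter on low counts in each of the 3 fits, so none was left out. The names do not fully match the structure, since Mrps18a and Mrps30 sit in the large subunit, and Mrps36 is now known as a component of the 2-oxoglutarate dehydrogenase complex.

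Mitochondrial ribosomes are a separate translation machine inside mitochondria. Their RNAs come from the mitochondrial genome, but all of their proteins are encoded in the nucleus, made by cytosolic ribosomes and imported. They translate the few messages of mitochondrial DNA, which encode core subunits of the respiratory chain and the ATP synthase. The footprints counted here are those of cytosolic ribosomes on the members' messages, so a level reflects both the amount of message and how heavily it is translated.

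The study compared eIF2αA/A (KI) cells with eIF2α+/+ (WT) cells. In KI cells eIF2α, the initiation factor whose phosphorylation lowers general translation, carries an alanine in place of its regulated serine. KI and WT cells were held for 6 days in serum-free medium with LIF alone or with LIF/2i, that is LIF plus PD0325901, a MEK inhibitor, and CHIR99021, a GSK3 inhibitor. LIF was given at 1000 U/mL, and all 4 groups received it. Lysates were digested with RNase I (2 replicates a group, 8 libraries) or with MNase (3 replicates a group, 12 libraries), and monosome footprints of 25 to 40 nt were sequenced. The labels name no clones and do not say that replicates are separate cultures, so p-values measure the spread between these libraries, which may be technical. The comparisons ask how loss of eIF2α phosphorylation and withdrawal of 2i alter footprints on each gene.

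Total counts were 1965050 to 16359039 in KI and 4011036 to 22916734 in WT libraries with RNase I, and 6560173 to 8894080 in KI and 2127850 to 5461210 in WT libraries with MNase. The MNase totals of the genotypes thus do not overlap, and depth and genotype cannot be told apart there. Summed counts of embryonic stem cell markers lay between 3391 and 6159 CPM (counts scaled to a library total adjusted by TMM) across all 20 libraries, so the markers of the labelled cell type were present throughout. KI replicate 1 stood apart from the other KI replicates in both media and with both nucleases. In it, 421 genes were higher and 509 lower by over 1.5-fold in all 4 settings, 7.72% of 12046 genes, against 0.531% for WT replicate 1. Of the members, 4 were higher in KI replicate 1 (Mrpl20, Mrpl33, Mrpl41 and Mrps25) and 1 was lower (Mrpl35), 6.41% of 78, and none was so in WT replicate 1. Mrpl20 had 126, 42.3 and 40.9 CPM in KI LIF and 108, 39.3 and 34.2 CPM in KI LIF/2i with MNase. Counts of members are therefore given with and without KI replicate 1, except where a compared group would keep 1 library. WT LIF replicate 2 stood apart in fibroblast and feeder markers, summed to 586 CPM with RNase I and 665 CPM with MNase, where the other WT LIF libraries had 39.6 to 147 CPM.

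Start-site sequence was available for 69 members, as 75 windows of 300 bases among 32851 windows of mouse genes (RefSeq, GRCm38.p6). Such promoters are known for sites of NRF1, of GABPA and other ETS factors, and of YY1, regulators of nuclear genes for mitochondrial proteins. Exact matches of 7 motifs on either strand were counted, and overlaps between motifs were allowed. The median GC content was 58.7% in member windows and 52.7% in all windows. Shares were not corrected for this, and their differences were not tested. The NRF1 motif occurred in 13 member windows (17.3%), against 4.60% of all windows. The GABPA and ETS letters CCGGAAG occurred in 26 (34.7%), against 8.86% of all windows, and the YY1 letters AAGATGGCG in 8 (10.7%), against 1.40%. The letters TGATGNAA, a short form of the composite element bound by ATF4, an eIF2α-dependent factor, were in 0 member windows and in 3.97% of all windows. The SP1 letters GGGCGG were in 39 (52%), against 35.7% of all windows, and the E-box CACGTG in 7 (9.33%), against 7.15%. The TATA box letters TATAAA were in 5 (6.67%), against 13.6%. Of the 17 members that passed the KI against WT test in either medium with MNase, 15 had a window, and 9 of these held an NRF1, GABPA and ETS, or YY1 match. Among the 54 other members with a window, 32 held one. The stretches below are shown because their genes passed that genotype test and carry a match. Each is 100 bases long, 5′ to 3′ on the gene's strand, with the NRF1 match (Mrpl39, Mrpl45 and, on the opposite strand, Mrps9) or the GABPA and ETS match (the others, on either strand) in capitals.
Mrpl39, chr16:84735315-84735414, minus strand: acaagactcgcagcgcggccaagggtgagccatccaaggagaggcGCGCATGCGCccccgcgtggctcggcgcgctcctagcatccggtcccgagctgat
Mrpl45, chr11:97315551-97315650, plus strand: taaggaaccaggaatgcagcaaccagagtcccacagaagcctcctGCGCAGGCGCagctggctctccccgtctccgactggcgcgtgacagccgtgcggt
Mrps9, chr1:42851163-42851262, plus strand: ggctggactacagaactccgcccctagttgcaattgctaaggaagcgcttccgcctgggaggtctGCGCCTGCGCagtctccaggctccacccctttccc
Mrpl3, chr9:105053198-105053297, plus strand: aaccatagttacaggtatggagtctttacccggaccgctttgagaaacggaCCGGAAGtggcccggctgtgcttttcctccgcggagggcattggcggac
Mrpl52, chr14:54426815-54426914, plus strand: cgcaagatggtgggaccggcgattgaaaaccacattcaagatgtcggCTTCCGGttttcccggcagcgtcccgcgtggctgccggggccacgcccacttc
Mrpl58, chr11:115403682-115403781, plus strand: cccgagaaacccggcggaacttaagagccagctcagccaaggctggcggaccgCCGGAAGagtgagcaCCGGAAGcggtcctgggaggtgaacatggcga
Mrps23, chr11:88204318-88204417, plus strand: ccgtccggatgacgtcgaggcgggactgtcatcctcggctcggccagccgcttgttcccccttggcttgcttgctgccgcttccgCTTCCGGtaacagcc
Mrps27, chr13:99344691-99344790, plus strand: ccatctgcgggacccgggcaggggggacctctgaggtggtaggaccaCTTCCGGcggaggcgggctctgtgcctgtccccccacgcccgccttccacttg
A match is a description of letters. It does not show that a factor binds there.

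In LIF/2i with MNase, 14 members rose and 1 fell in KI cells relative to WT cells, out of 78 tested. The members that rose were spread over both subunits, with 10 of 49 named for the large and 4 of 29 for the small one, and Mrps24 was the one that fell. Over all 12806 genes tested, 25.4% passed in either direction, 13.8% higher and 11.5% lower, against 17.9% of the members higher and 1.28% lower. The members' median log2 fold change was 0.18, against 0.01 over all genes. This and every other count of calls uses edgeR's quasi-likelihood test (two-sided, Benjamini-Hochberg adjusted p under 0.05 over all genes). In these bulk samples, fewer cells of a type and less RNA per cell cannot be told apart.

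Mrpl1, a protein of the L1 stalk, where used tRNA leaves the ribosome, showed the highest fold change of the 15. It had 134, 188 and 175 CPM in KI LIF/2i and 84.7, 83.6 and 69.1 CPM in WT LIF/2i, a log2 fold change of 1.07 ± 0.15 (SE, n = 3 each, edgeR adjusted p = 0.000743). The lowest KI library was above the highest WT library.

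Around the peptidyl transferase centre, where peptide bonds form, 2 of 5 members rose. Mrpl3 had 126, 118 and 106 CPM in KI LIF/2i, against 68.1, 66.0 and 65.7 CPM in WT LIF/2i (log2 fold change 0.81 ± 0.13, SE, edgeR adjusted p = 0.0014). Mrpl16 had 94.4, 106 and 103 CPM in KI LIF/2i, against 59.2, 62.5 and 55.6 CPM in WT LIF/2i (0.77 ± 0.16, edgeR adjusted p = 0.0049). The KI and WT values of neither gene overlapped.

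At the exit of the peptide tunnel, 3 of 8 members rose. Mrpl45, which binds the ribosome to the inner membrane, had 74.4, 74.5 and 65.8 CPM in KI LIF/2i and 52.1, 37.9 and 45.5 CPM in WT LIF/2i (log2 fold change 0.67 ± 0.15, SE, edgeR adjusted p = 0.0076). Mrpl39, a mitochondria-specific protein, had 237, 205 and 197 CPM in KI LIF/2i and 131, 149 and 130 CPM in WT LIF/2i (0.64 ± 0.13, edgeR adjusted p = 0.0046). Mrpl47 rose less (0.43 ± 0.15, edgeR adjusted p = 0.0453), with KI libraries at 58.0 to 69.3 CPM and WT libraries at 45.2 to 49.9 CPM. In all 3 genes the genotypes did not overlap.

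In the central protuberance, 1 of 6 members rose. This was Mrpl46, with 72.4, 83.6 and 68.3 CPM in KI LIF/2i and 44.3, 49.9 and 36.6 CPM in WT LIF/2i (log2 fold change 0.78 ± 0.16, SE, edgeR adjusted p = 0.0048). In RefSeq its start lies 42 bases from that of the divergent gene Mrps11, a small subunit protein. Mrps11 had 49.3, 27.5 and 32.04 CPM in KI LIF/2i and 27.3, 42.6 and 33.0 CPM in WT LIF/2i, so its genotypes overlapped and it did not pass. Mrpl58, a peptidyl-tRNA hydrolase built into the large subunit, also rose (0.51 ± 0.16, edgeR adjusted p = 0.0316), as did Mrpl13 (0.49 ± 0.15, 0.0248) and Mrpl52 (0.41 ± 0.13, 0.0421).

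In the small subunit head, 2 of 7 members rose. Mrps9 had 109, 120.2 and 126 CPM in KI LIF/2i, against 69.9, 78.1 and 70.6 CPM in WT LIF/2i (log2 fold change 0.70 ± 0.14, SE, edgeR adjusted p = 0.0037). Mrps14 had 41.5, 49.9 and 44.5 CPM in KI LIF/2i, against 26.6, 28.8 and 22.6 CPM in WT LIF/2i (0.80 ± 0.18, edgeR adjusted p = 0.0064). Of the 16 members of the small subunit body and platform, Mrps27 (0.75 ± 0.13, edgeR adjusted p = 0.0017) and Mrps23 (0.50 ± 0.17, 0.0464) rose. Mrps27, a mitochondria-specific protein with RNA-binding repeats, had 128, 114 and 109 CPM in KI LIF/2i and 70.6, 72.8 and 65.4 CPM in WT LIF/2i.

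Mrps24, the homologue of bacterial S3 at the entry of the messenger RNA channel, went the other way. It had 149, 101 and 104 CPM in KI LIF/2i and 179, 235 and 210 CPM in WT LIF/2i (log2 fold change -0.82 ± 0.21, SE, edgeR adjusted p = 0.0135). All KI libraries were below all WT libraries. The 3 stalk and GTPase centre members had 0 calls.

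**Figure D1:**
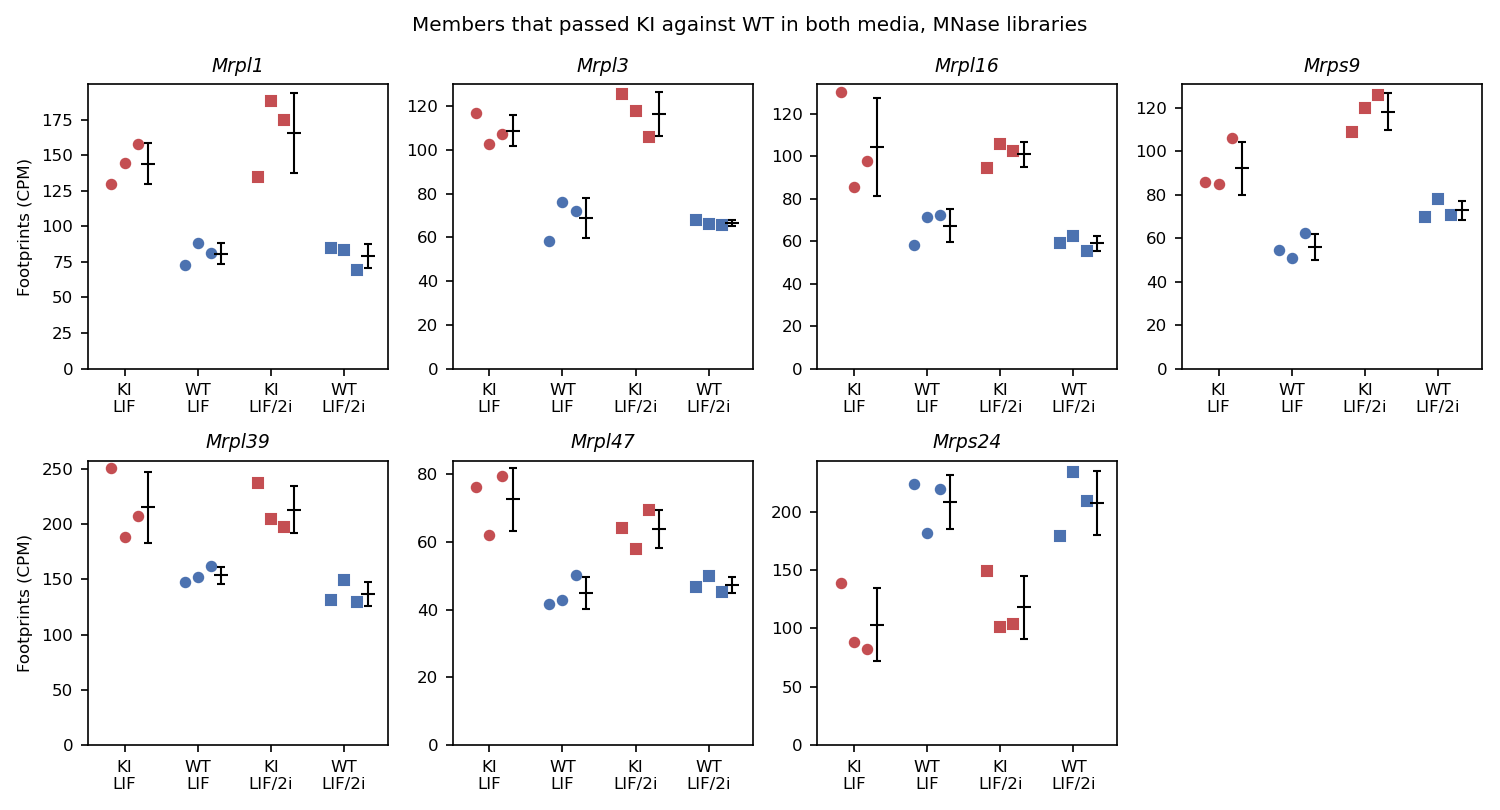
Footprints of 7 members in the 12 MNase libraries, in CPM per library (y axis, from 0), with circles for LIF, squares for LIF/2i, red for KI, blue for WT, and black dashes and bars for the group mean ± SD (n = 3). KI libraries sit above WT libraries for Mrpl1, Mrpl3, Mrpl16, Mrps9, Mrpl39 and Mrpl47 in both media, and below them for Mrps24.

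Conservation was used as a second grouping of the same members. Of 27 proteins with counterparts in all domains of life, 7 rose and 1 fell (median log2 fold change 0.18). Of 31 mitochondria-specific proteins, 7 rose and 0 fell (median 0.26). Of 18 proteins of bacterial origin only, 0 passed, and their median was -0.22. With KI replicate 1 left out, these counts were 7 higher and 2 lower, 9 higher and 1 lower, and 1 higher and 6 lower, in the same order of classes. By role, without KI replicate 1, 2 of 5 peptidyl transferase centre and 2 of 6 central protuberance members were higher. At the tunnel exit 3 of 8 were higher and 1 lower, and in the small subunit head 2 of 7 were higher. In the body and platform 2 of 16 were higher and 1 lower, and 2 of 3 decoding centre and mRNA channel members were lower. Over all genes, with all libraries, 13.8% were higher and 11.5% lower. Differences between classes or roles, or from all genes, were not tested.

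KI and WT libraries did not overlap in LIF/2i for 28 members (35.9%), against 39.8% of all genes. Single-library omissions left 9 of the 15 calls in place in all 12 refits. Mrpl13, Mrpl47, Mrpl52, Mrpl58, Mrps23 and Mrps24 lost theirs in at least 1. Without KI replicate 1, all 15 calls were kept and 27 members passed (17 higher, 10 lower), as 39.1% of all genes did; with all libraries thinned to the smallest total, 9 passed (8 higher, 1 lower), against 14.1% of all genes. Among the members that passed as lower without KI replicate 1 were Mrpl20 (-1.04, edgeR adjusted p = 0.00059), Mrps12 (-0.83), Mrpl34 (-0.81), Mrpl55, Mrpl33 and Mrps6.

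In LIF with MNase, 7 members rose and 2 fell in KI cells. Over all genes 13.4% passed, 7.36% higher and 6.05% lower, against 8.97% and 2.56% of the members. The members' median log2 fold change was -0.03 and that of all genes -0.01, so the members as a list did not lean to higher values in LIF. Of the 9, 7 were named for the large subunit (6 higher, 1 lower) and 2 for the small one (1 higher, 1 lower).

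Mrpl1 again had the highest fold change, with 130, 145 and 158 CPM in KI LIF and 73.0, 88.2 and 81.4 CPM in WT LIF (log2 fold change 0.83 ± 0.15, SE, n = 3 each, edgeR adjusted p = 0.0048). Mrps9 had 85.7, 84.8 and 106 CPM in KI LIF and 54.8, 50.7 and 62.6 CPM in WT LIF (0.72 ± 0.14, edgeR adjusted p = 0.0061). Mrpl47 had 76.2, 62.0 and 79.4 CPM in KI LIF and 41.5, 42.9 and 50.3 CPM in WT LIF (0.69 ± 0.15, edgeR adjusted p = 0.0095). None of these 3 overlapped between genotypes.

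Mrpl3 (0.66 ± 0.13, SE, edgeR adjusted p = 0.0069), Mrpl16 (0.63 ± 0.16, 0.0219) and Mrpl39 (0.49 ± 0.13, 0.0275) also rose. Mrpl19, a protein of bacterial origin on the large subunit, had 224, 108 and 137 CPM in KI LIF and 96.7, 93.3 and 90.9 CPM in WT LIF (0.74 ± 0.23, edgeR adjusted p = 0.0468). Its KI replicate 1 was well above the other KI libraries. Mrps24 fell, with 139, 88.2 and 82.0 CPM in KI LIF and 224, 182 and 219 CPM in WT LIF (-1.01 ± 0.21, edgeR adjusted p = 0.0083). Mrpl55, a large subunit protein, had 41.1, 29.96 and 31.9 CPM in KI LIF and 72.6, 47.7 and 71.9 CPM in WT LIF (-0.90 ± 0.24, edgeR adjusted p = 0.0285).

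The media share no library, but KI libraries deviate together across them, so the lists are not independent. Mrpl1, Mrpl3, Mrpl16, Mrpl39, Mrpl47 and Mrps9 were higher in KI in both, which is 42.9% of the list that rose in LIF/2i and 85.7% of the list that rose in LIF. Over all genes these shares were 37.2% and 69.9%, and 5.15% of genes were higher in both media, against 7.69% of the members. Mrps24 was lower in both, as 3.06% of all genes were, and 0 members passed in opposite directions. In LIF, genotypes did not overlap for 28 members (35.9%), against 35.5% of all genes. Without KI replicate 1, 22 members passed in LIF (7 higher, 15 lower), against 26.7% of all genes; 8 of the 9 were among them, and the median moved to -0.16. Without WT LIF replicate 1 there were 5 calls, and without WT LIF replicate 2 there were 6 (4 higher, 2 lower). Without KI LIF/2i replicate 1 there were 14, and DESeq2 called 16 (9 higher, 7 lower). Shares of all genes in these refits are not given here. Mrpl16, Mrpl19, Mrpl39 and Mrpl55 lost their calls in at least 1 of 12 single-library omissions.

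With RNase I, which left 2 libraries a group, no member passed the KI against WT test. In LIF/2i the count was 0 of 78, against 0.232% of all genes; 13 members had an unadjusted p under 0.05, all higher in KI, and DESeq2 called 0. In LIF it was 0 of 78, against 0.116% of all genes, and DESeq2 called 0. There, 7 had an unadjusted edgeR p under 0.05, 3 higher and 4 lower. The share of all genes under that unadjusted threshold is not given here for any comparison, so such counts show no excess among members. In simulated counts for LIF/2i, the RNase I fit recovered 36% of genes with a log2 fold change of 1. Counts of 0 therefore do not show equal levels. The members' median log2 fold change was 0.19 in LIF/2i and 0.03 in LIF, against 0.01 and -0.02 over all genes. When KI replicate 1 was omitted, which leaves 1 KI library a group, the medians were 0.05 in LIF/2i and -0.07 in LIF.

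For the 15 members that passed with MNase in LIF/2i, the RNase I fold change had the same sign in 14 and lay between -0.04 and 0.57. Mrpl1 had 104 and 133 CPM in KI LIF/2i and 98.3 and 109 CPM in WT LIF/2i with RNase I, overlapping values (log2 fold change 0.19). Mrps9 had 121 and 131 CPM in KI LIF/2i and 90.2 and 90.5 CPM in WT LIF/2i (0.48). Mrps24 overlapped too, with 153 and 117 CPM in KI LIF/2i and 118 and 162 CPM in WT LIF/2i (-0.04), whereas in LIF it had 107 and 80.7 CPM in KI and 177 and 135 CPM in WT (-0.73). For the 9 members of the LIF comparison, all 9 signs were shared. RNase I and MNase libraries of one number deviated together from their group means, so these signs are not independent of the MNase values.

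Whether the genotype difference itself differed between RNase I and MNase was tested over replicates 1 and 2. Without pairing, 0 members and 0% of all genes passed in either medium, with unadjusted p under 0.05 for 4 members in LIF/2i and 0 in LIF, and DESeq2 called 0. With RNase I and MNase libraries of one group and number as a replicate block, 5 members and 15.3% of all genes passed in LIF/2i, and 0 members and 0.738% of all genes in LIF. The genotype difference was lower with RNase I for Mrpl45 (-0.74, edgeR adjusted p = 0.0059), Mrpl1 (-0.71, 0.0051) and Mrpl3 (-0.60, 0.0145), and higher for Mrps24 (0.71, 0.0029) and Mrps12 (0.68, 0.0207), as log2 RNase I minus MNase. The share of members, 6.41%, was below that of all genes. In simulated counts the unpaired test recovered 6% of genes with a log2 fold change of 1, so its 0 calls do not show equal differences. Without KI replicate 1 it would rest on 1 KI library per medium and nuclease, so that refit is not read.

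**Figure D2:**
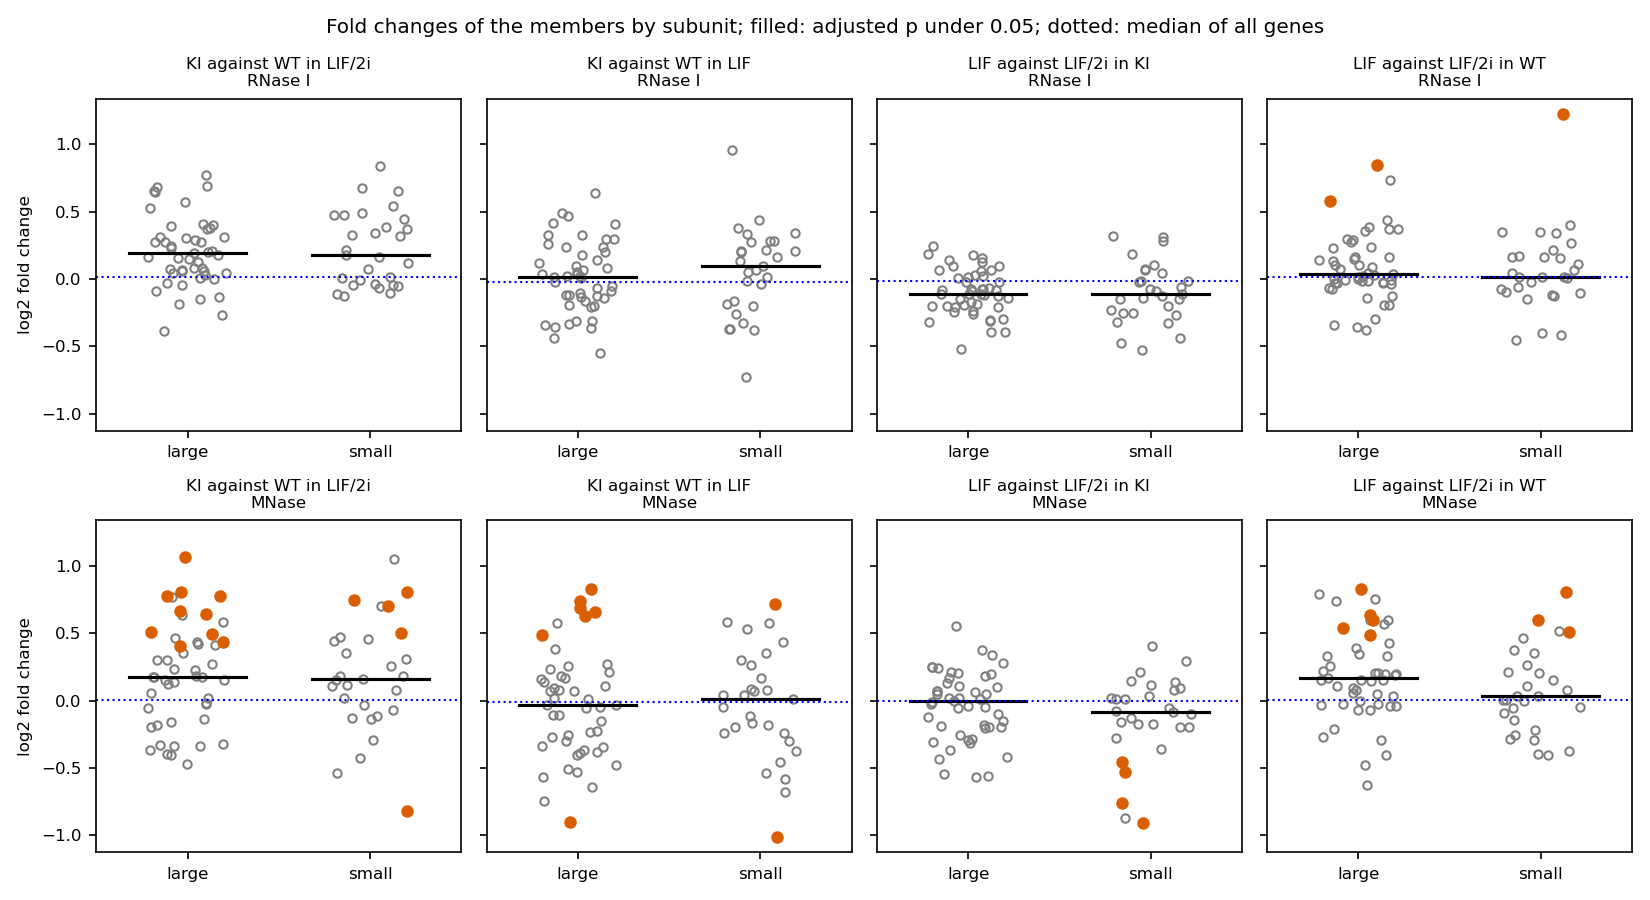
The log2 fold change of each member (y axis) in 4 comparisons, by subunit in the name, for RNase I (top) and MNase (bottom). Filled orange points passed edgeR's adjusted p under 0.05, bars are the medians over the subunit and dotted lines the median of all genes; Mrpl23, with very few counts, is not plotted but enters the medians. Filled points are almost all above 0 for KI against WT with MNase, and no point is filled for KI against WT with RNase I.

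In WT cells with MNase, 8 members rose and 0 fell in LIF relative to LIF/2i, against 21% of all genes in either direction, 9.99% higher and 11% lower. Of the 8, 5 were named for the large subunit and 3 for the small one. The members' median log2 fold change was 0.15, against 0.01 over all genes.

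Mrpl38, a mitochondria-specific protein of the central protuberance, had 157, 150.3 and 144 CPM in WT LIF and 73.8, 104 and 76.2 CPM in WT LIF/2i (log2 fold change 0.83 ± 0.15, SE, n = 3 each, edgeR adjusted p = 0.0019). Mrps18b had 143, 137 and 145 CPM in WT LIF and 94.3, 105 and 100.1 CPM in WT LIF/2i (0.51 ± 0.12, edgeR adjusted p = 0.0097). Mrpl58 had 77.6, 71.3 and 80.5 CPM in WT LIF and 48.6, 59.3 and 40.3 CPM in WT LIF/2i (0.63 ± 0.16, edgeR adjusted p = 0.0136). The media did not overlap for any of these 3, nor for 27 members (34.6%) in all, against 42.5% of all genes.

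Mrpl2, a protein of the peptidyl transferase centre, had 178, 147 and 176 CPM in WT LIF and 106, 129 and 109 CPM in WT LIF/2i (0.54 ± 0.14, SE, edgeR adjusted p = 0.0145). Mrps23 (0.60 ± 0.17, 0.0260), Mrpl54 (0.49 ± 0.15, 0.0352) and Mrpl57 (0.60 ± 0.19, 0.0403) also rose. Mrps10, a small subunit head protein, had 8.67, 14.7 and 15.8 CPM in WT LIF and 6.74, 9.39 and 6.64 CPM in WT LIF/2i (0.81 ± 0.27, edgeR adjusted p = 0.0486), and its libraries overlapped.

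With RNase I in WT cells, 3 members rose and 0 fell, against 13.6% of all genes, 7.17% higher and 6.47% lower, and all 3 had also risen with MNase. Mrps10 had 17.1 and 19.7 CPM in WT LIF and 6.92 and 8.89 CPM in WT LIF/2i (log2 fold change 1.23 ± 0.27, SE, n = 2 each, edgeR adjusted p = 0.0196). Mrpl38 had 204 and 205 CPM in WT LIF and 103 and 125 CPM in WT LIF/2i (0.84 ± 0.15, edgeR adjusted p = 0.0092). Mrpl58 had 92.6 and 89.3 CPM in WT LIF and 54.6 and 67.1 CPM in WT LIF/2i (0.58 ± 0.16, edgeR adjusted p = 0.0499). All 8 members called with MNase had a positive fold change with RNase I, from 0.16 to 1.23.

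Some marker lists of other cell types moved with the medium in WT cells, and others overlapped. Mesoderm markers overlapped with MNase, at 13.2 to 20.5 CPM in WT LIF and 14.4 to 21.15 CPM in WT LIF/2i. Neuroectoderm markers did too, at 43.25 to 60.2 CPM in WT LIF and 25.2 to 47.7 CPM in WT LIF/2i. With MNase, the 8 summed primitive endoderm markers were at 189 to 272 CPM in WT LIF and 66.0 to 67.6 CPM in WT LIF/2i, and the 8 trophoblast markers at 509 to 694 CPM in WT LIF and 188 to 261 CPM in WT LIF/2i. The 8 fibroblast and feeder markers were at 54.2 to 665 CPM in WT LIF and 14.1 to 15.2 CPM in WT LIF/2i, the highest value being that of WT LIF replicate 2. Their part in the members' changes was not tested. Of the 8 MNase calls in WT, Mrpl38 and Mrps18b stayed in all 12 single-library omissions. The count was 2 without WT LIF/2i replicate 1 or WT LIF replicate 3, 4 without WT LIF/2i replicate 3, 5 without WT LIF replicate 1, WT LIF replicate 2 or KI LIF/2i replicate 3, and 14 when KI LIF/2i replicate 1 was omitted. Leaving KI replicate 1 out of both media gave 17 (14 higher, 3 lower), in a fit that pools the spread over groups, and thinning gave 4. No share of all genes is given here for these refits, so the counts show no change particular to the members. With RNase I, leaving it out gave 4 (3 higher, 1 lower), including all 3. The 3 RNase I calls fell to 0 without WT LIF/2i replicate 1, WT LIF replicate 1 or WT LIF replicate 2, and to 1 without WT LIF/2i replicate 2.

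In KI cells with MNase, 1 member rose and 4 fell in LIF relative to LIF/2i, against 18.7% of all genes, 8.37% higher and 10.3% lower, and the 4 that fell were all small subunit proteins. Mrps14, of the small subunit head, had 28.9, 24.2 and 19.7 CPM in KI LIF and 41.5, 49.9 and 44.5 CPM in KI LIF/2i (log2 fold change -0.91 ± 0.17, SE, n = 3 each, edgeR adjusted p = 0.0029). Mrps18c had 35.1, 28.1 and 31.3 CPM in KI LIF and 59.7, 55.4 and 44.5 CPM in KI LIF/2i (-0.76 ± 0.16, edgeR adjusted p = 0.0055). The media did not overlap for either gene, nor for 17 members (21.8%) in all, against 34.9% of all genes.

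Mrps2 had 98.3, 91.6 and 107 CPM in KI LIF and 135, 125 and 148 CPM in KI LIF/2i (-0.46 ± 0.15, SE, edgeR adjusted p = 0.0424). Mrps28 had 123, 84.5 and 81.8 CPM in KI LIF and 162, 131 and 125 CPM in KI LIF/2i (-0.53 ± 0.17, edgeR adjusted p = 0.0447). The member that rose was Mrpl23, a tunnel exit protein with very few counts: 8, 10 and 16 in KI LIF and 0, 1 and 2 in KI LIF/2i. These sum to 34 and 3 counts, an 11.7-fold ratio once scaled by library totals (95% exact interval 3.68 to 59.5, for counting error only). With RNase I the same ratio was 0.563 (0.109 to 1.84), from 3 and 26 counts.

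Some marker lists of other cell types moved with the medium in KI cells too, and others overlapped. With MNase the fibroblast and feeder markers were at 94.5 to 128 CPM in KI LIF and 26.1 to 32.2 CPM in KI LIF/2i, the trophoblast markers at 275 to 302 CPM in KI LIF and 100 to 246 CPM in KI LIF/2i, and the primitive endoderm markers at 59.5 to 69.0 CPM in KI LIF and 38.5 to 60.3 CPM in KI LIF/2i. The 10 stem cell markers were at 4270 to 4367 CPM in KI LIF and 5466 to 6159 CPM in KI LIF/2i. Their part in the members' changes was not tested.

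Deviations of same-numbered KI libraries correlated across the media at 0.315 to 0.563, but replicates 2 and 3 correlated as strongly when crossed (0.367 and 0.404), so the pairing sets apart replicate 1. With the replicate number as a block within genotype, 11 members passed in KI (2 higher, 9 lower), against 28.1% of all genes, including all 5. The block added Mrpl35 (log2 fold change -0.55, edgeR adjusted p = 0.0040), Mrpl45 (-0.44), Mrpl46 (-0.42), Mrpl40 (-0.37), Mrps9 (-0.36) and Mrpl51 (0.55). Without KI replicate 1 there were 8 calls (2 higher, 6 lower), 4 of them shared, with no share of all genes given here. Mrps2 and Mrps28 lost their calls in single-library omissions, which left 3 calls without WT LIF/2i replicate 1, any WT LIF replicate, KI LIF/2i replicate 2 or 3, or KI LIF replicate 2 or 3; thinning left 2. With RNase I in KI cells 0 members passed, against 3.46% of all genes, 1.41% higher and 2.04% lower; 1 had an unadjusted p under 0.05 and DESeq2 called 0. Leaving out KI replicate 1 leaves 1 KI library a group with RNase I, so that refit is not read. The RNase I log2 fold changes of the MNase calls were -0.12 for Mrps14, -0.06 for Mrps18c, -0.15 for Mrps28 and -0.47 for Mrps2.

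**Figure D3:**
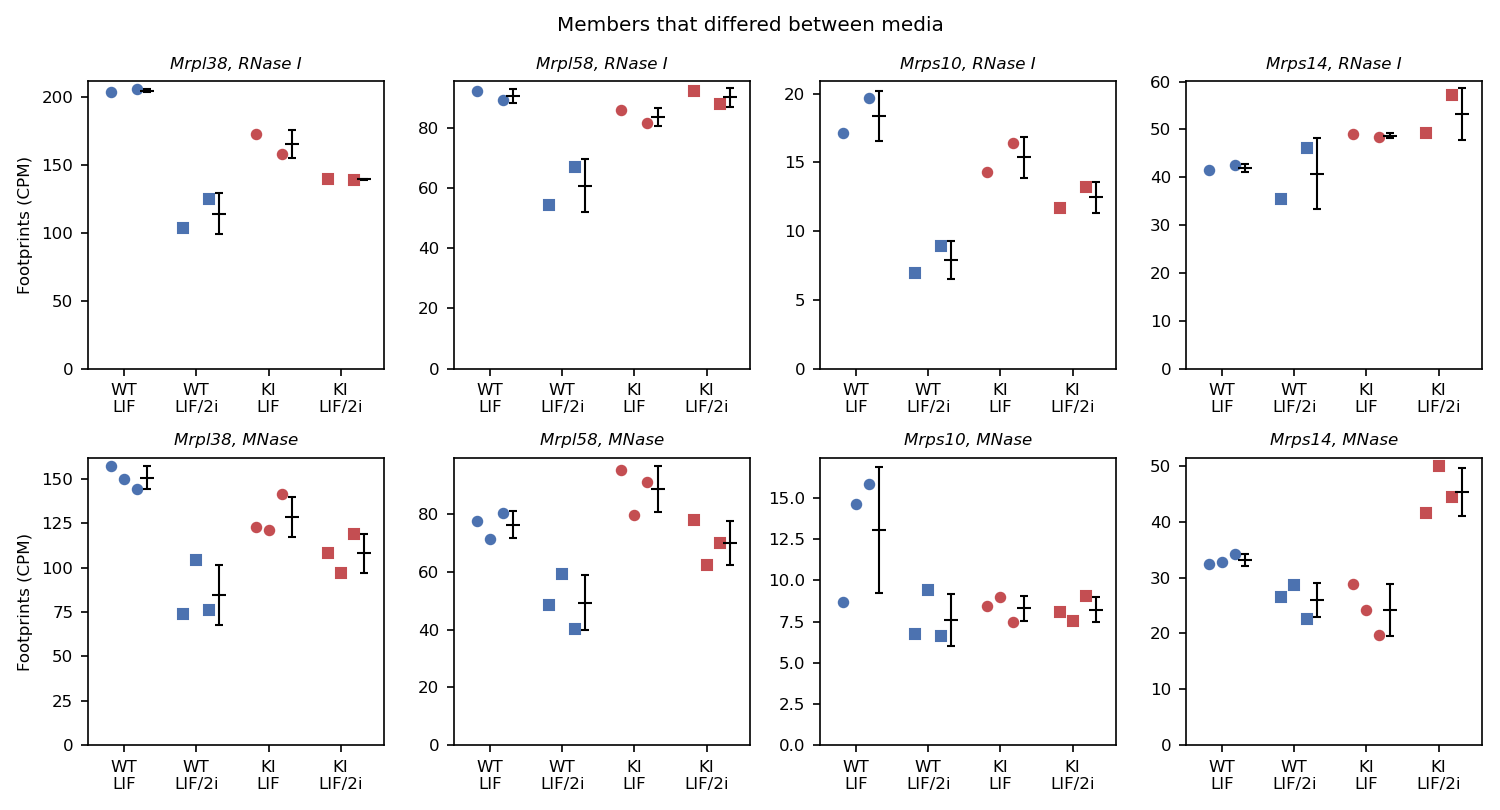
Footprints of Mrpl38, Mrpl58, Mrps10 and Mrps14 in CPM per library (y axis) with RNase I (top) and MNase (bottom), for WT LIF, WT LIF/2i, KI LIF and KI LIF/2i, with the mean ± SD as black dashes and bars. Mrpl38 and Mrpl58 are higher in WT LIF than in WT LIF/2i with both nucleases, and Mrps14 is lower in KI LIF than in KI LIF/2i with MNase.

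Whether the medium acted differently in KI and WT cells was tested as an interaction. With MNase, 0 of 78 members passed in edgeR, against 0.336% of all genes, 0.102% higher and 0.234% lower. At an unadjusted edgeR p under 0.05 there were 8, all with a lower medium effect in KI, with no share of all genes beside them. DESeq2 called 1, Mrps14. Mrps14 had 28.9, 24.2 and 19.7 CPM in KI LIF and 32.4, 32.8 and 34.3 CPM in WT LIF, the reverse order of LIF/2i. Its interaction was -1.26 ± 0.25 (SE, edgeR adjusted p = 0.0541). It passed without KI replicate 1 (-1.47, edgeR adjusted p = 0.0064), with the replicate block within genotype (-1.28, 0.0262), on omission of KI LIF/2i replicate 1 (-1.32, 0.0263) or of KI LIF replicate 1 (-1.41, 0.0208). With RNase I, Mrps14 had 49.1 and 48.3 CPM in KI LIF, 41.4 and 42.6 CPM in WT LIF, 49.3 and 57.1 CPM in KI LIF/2i, and 35.5 and 46.1 CPM in WT LIF/2i, so KI LIF was not below WT LIF there. The RNase I interaction had 0 calls among members and 0% of all genes; 5 members had an unadjusted p under 0.05, and DESeq2 called 0. No count is read from the RNase I refit without KI replicate 1, which leaves 1 KI library a group.

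The balance of the subunits was measured as the summed counts of the 29 small subunit members over those of the 49 large subunit members in each library. With MNase it was 0.563, 0.546 and 0.546 in KI LIF, 0.568, 0.581 and 0.578 in WT LIF, 0.583, 0.576 and 0.590 in KI LIF/2i, and 0.614, 0.616 and 0.647 in WT LIF/2i. By name, KI was below WT in each medium, and LIF below LIF/2i in each genotype, with no overlap. By structure, Mrps18a and Mrps30 count as large subunit and Mrps36 as neither. KI LIF (0.501, 0.473 and 0.467) then overlapped WT LIF (0.492, 0.505 and 0.506). It also overlapped KI LIF/2i (0.521, 0.489 and 0.504). The log2 ratio differed by -0.06 between KI and WT in LIF, by -0.10 between KI and WT in LIF/2i, by -0.08 between LIF and LIF/2i in KI, and by -0.12 between them in WT. With RNase I the ratio was 0.535 and 0.553 in KI LIF, 0.544 and 0.551 in WT LIF, 0.565 and 0.574 in KI LIF/2i, and 0.570 and 0.559 in WT LIF/2i. There the summed genotypes overlapped in both media, while LIF stayed below LIF/2i. Summed counts are led by the members with many footprints. With every member weighted equally, the genotypes overlapped with MNase, with a KI minus WT difference of -0.008 in LIF and 0.005 in LIF/2i. With RNase I at equal weights, KI was above WT in LIF/2i by 0.02 without overlap, and the genotypes overlapped in LIF (0.069). LIF stayed below LIF/2i with MNase in both genotypes (-0.14 in KI, -0.13 in WT), and with RNase I in WT (-0.05) but not in KI (0, overlapping).

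**Figure D4:**
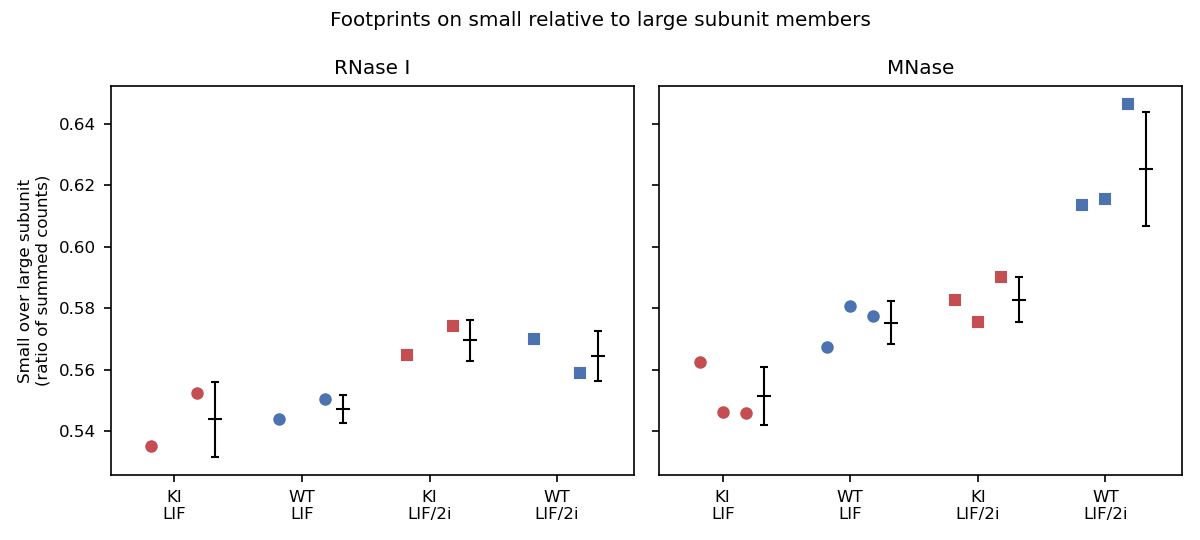
Summed counts of small subunit members over those of large subunit members, one point per library, for RNase I (left) and MNase (right), with red for KI, blue for WT, circles for LIF, squares for LIF/2i, and black dashes and bars for the group mean ± SD. The y axis does not start at 0; with MNase the KI libraries lie below the WT libraries of the same medium.

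Counts of many members differed between the nucleases. Over the 16 libraries of replicates 1 and 2, 23 members were higher and 7 lower with RNase I than with MNase, 38.5% of 78, against 32% of all genes, 15.7% higher and 16.4% lower. The median log2 fold change was 0.11 for the members and 0 over all genes. Of the large subunit members, 15 were higher and 3 lower, and of the small subunit members, 8 and 4. In the small subunit head, 5 of 7 members were higher and 1 was lower.

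Mrps36 differed most, with 15.5 ± 2.84 CPM with RNase I and 1.81 ± 0.835 CPM with MNase (SD, n = 8 each; log2 fold change 3.07 ± 0.18, SE, edgeR adjusted p = 3.9e-08). Mrps33, of the small subunit head, had 13.3 ± 4.68 CPM with RNase I and 5.34 ± 2.45 CPM with MNase (1.3 ± 0.21, edgeR adjusted p = 0.00019). Both are small subunit proteins by name and have few footprints. Mrpl34, of the large subunit, had 84.2 ± 11.5 CPM with RNase I and 44.2 ± 10.5 CPM with MNase (0.94 ± 0.14, edgeR adjusted p = 8.3e-05). Mrpl4, a large subunit protein grouped here with those around the peptidyl transferase centre, had 182 ± 10.6 CPM with RNase I and 131 ± 11.8 CPM with MNase (0.48 ± 0.07, edgeR adjusted p = 9.1e-05). Lower with RNase I were Mrpl15, with 270.2 ± 17.3 CPM against 368 ± 47.0 CPM with MNase (-0.44), Mrpl11 (-0.51), Mrps31 (-0.51), Mrpl47 (-0.44), Mrps15 (-0.38), Mrps23 (-0.30) and Mrps18b (-0.29).

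The nucleases did not overlap for 5 members (6.41%), namely Mrpl4, Mrpl21, Mrpl34 and Mrps36 above and Mrpl15 below, against 4.47% of all genes. RNase I and MNase libraries of one group and number deviated together (correlations 0.486 to 0.711), and a replicate block for these 8 pairs gave 38 calls (28 higher, 10 lower), with all 30 kept. Of the 30 calls, 26 stayed in all 16 single-library omissions, and thinning left 17. Leaving KI replicate 1 out gave 31 calls (25 higher, 6 lower), 27 of them shared. How many of all genes passed in these nuclease refits is not given here.

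**Figure D5:**
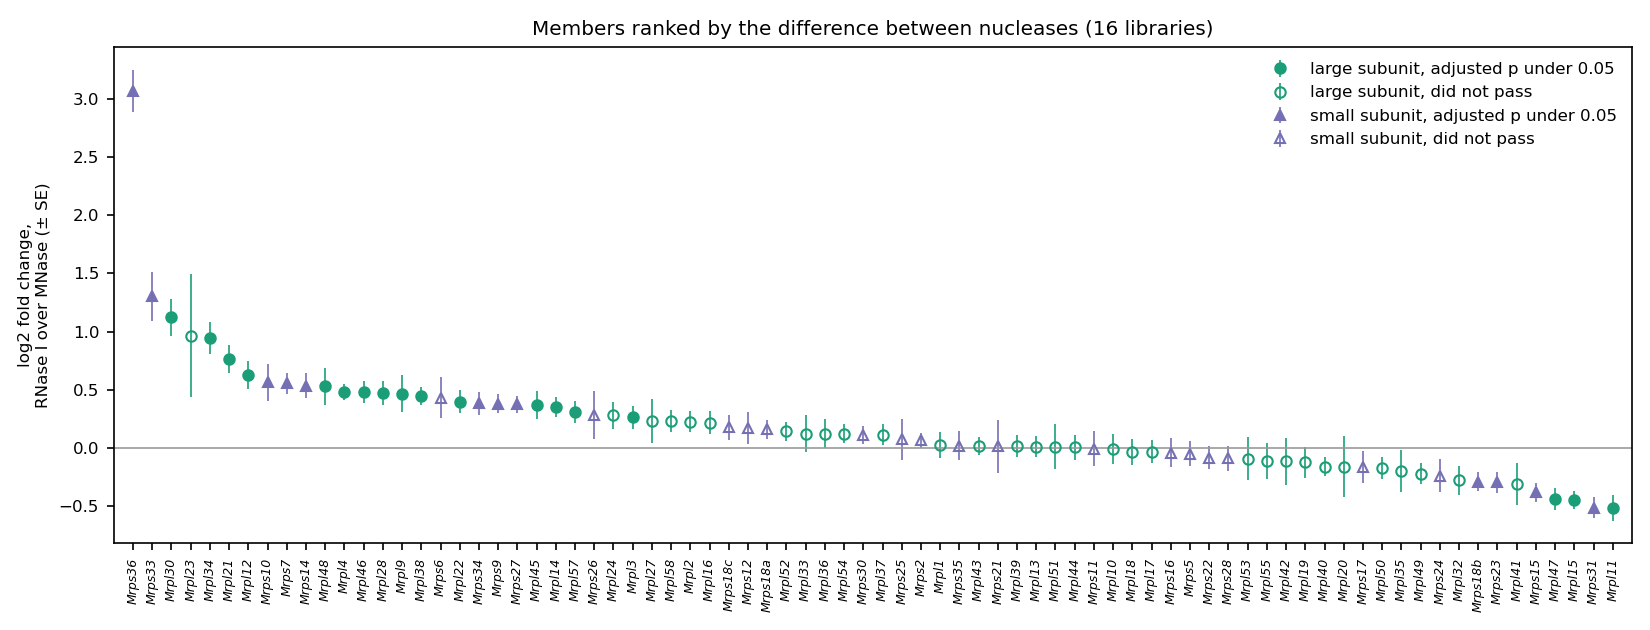
The log2 fold change of RNase I over MNase for the 78 members, ranked, with ± 1 SE (16 libraries). Mrps36, at 3.07, stands above all other members, and the 7 that passed as lower lie between -0.51 and -0.29.

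Other parts of the mitochondrial gene expression machinery were counted in the same fits. With MNase, counts of rises here stand against 13.8% of all genes higher in LIF/2i and 7.36% in LIF. Counts of falls stand against 11.5% of all genes lower in LIF/2i and 6.05% in LIF. In KI against WT in LIF/2i with MNase, 4 of 14 translation factors rose and 0 fell, with the elongation factor GFM1 at 1.09 and LRPPRC, which stabilises mitochondrial messenger RNA, at 1.25 (log2 fold change). In LIF 4 of 14 rose and 0 fell. For synthetases, which charge mitochondrial tRNAs, and for assembly factors, the shares were near those of all genes. Of 20 mitochondrial aminoacyl-tRNA synthetases, 4 rose in LIF/2i and 2 in LIF, with YARS2 at 0.68 and 0.62. Of 25 assembly and rRNA modification factors, 4 rose in LIF/2i and 3 in LIF, with FASTKD2, a factor of large subunit assembly, at 1.54 and 0.81. Of 16 transcription and RNA processing factors, 8 rose and 2 fell in LIF/2i and 6 rose in LIF, with the exonuclease PNPT1 at 1.13 and 1.01. The 13 subunits encoded by mitochondrial DNA, the products of the mitoribosome, went the other way with MNase, with 10 lower in LIF/2i and 6 lower in LIF. With RNase I 0 of them passed, and their sums were 4987 to 5929 CPM in KI LIF, 2576 to 3287 CPM in WT LIF, 2286 to 3998 CPM in KI LIF/2i and 2427 to 3036 CPM in WT LIF/2i, so KI was above WT in LIF. Of 5 mitoribosomal proteins with other names, CHCHD1 (0.80) and GADD45GIP1 (0.54) rose in LIF/2i, and 0 passed in LIF. With RNase I the same log2 fold changes were smaller for GFM1 (0.41 in LIF/2i and 0.13 in LIF) and for FASTKD2 (0.53 and 0.50), and neither passed.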

How the data were processed

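The authors deposited 1 table of raw footprint counts per gene and library, which was used as deposited. The submitters' processing notes name UMI-tools 1.0.1, Bowtie 1.3.0 and cutadapt 3.4. Build and counting rule are not given in the sources used here, and overlapping or antisense genes may share reads. The file writes symbols in capitals, and the mouse spelling was matched through the RefSeq table (78 of 78).

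Fits used edgeR 4.0.16 (R 4.3.3) with filterByExpr, TMM scaling and the quasi-likelihood test: 12806 genes in 12 MNase libraries, 12095 in 8 RNase I libraries, and 12732 in the 16 libraries of replicates 1 and 2 for the nuclease comparison. P-values were two-sided and adjusted over all genes tested. The scripts were tested on simulated data. For KI against WT in LIF/2i, 55% of genes with a log2 fold change of 1 were recovered with MNase and 36% with RNase I. The share was 95% for RNase I against MNase and 6% for RNase I minus MNase in the genotype difference. A lack of calls in the genotype tests therefore does not show equal levels. Errors are the fit's SE or the SD between libraries, and the exact interval of a count ratio covers counting error only. Alternatives were DESeq2 1.42.0, other scalings, no filter, a replicate block, thinning to the smallest library, and leaving out libraries.

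Members and lists were chosen with earlier results of these data known. By rule, members named in a comparison had an adjusted p under 0.05 (the 8 largest rises and falls and the 3 smallest p). Up to 3 members of each other list were named by smallest p. Further members that passed were named beyond the rule, such as Mrpl4 for the nucleases and all 14 that rose in KI in LIF/2i with MNase. Mrps11, the members led by KI replicate 1 and those gained in an alternative were chosen after their values were seen. A planned ranking by footprint density was not made, because coding lengths were not used here, and levels of different genes are not compared. The main tests used group means without a replicate block. Same-numbered KI libraries deviated together across media with MNase (correlations 0.563, 0.315 and 0.393), so pairing by number was added as an alternative only. Crossed KI replicates 2 and 3 correlated at 0.367 and 0.404. For same-numbered WT libraries the correlations were 0.015, 0.078 and 0.035. No 2 libraries were identical. Roles and subunits of members come from general knowledge of mitoribosome structures.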

Additional observations from a re-analysis of the deposited data

How the results depend on the processing

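Of 602 refits of single named calls, 516 kept the call, 86 lost it and 0 changed direction. Counts of members that moved by over 1.5 times were these. Without the share of all genes beside them they are not a result about the members. DESeq2 called 16 for KI against WT in LIF and 1 for the interaction with MNase. Thinning gave 9 for KI against WT in LIF/2i, 2 and 4 for LIF against LIF/2i in KI and WT with MNase, 0 in WT with RNase I, and 17 for the nucleases. Without KI replicate 1 the MNase counts were 27 and 22 for KI against WT in LIF/2i and LIF, 8 and 17 for the medium in KI and WT, and 1 for the interaction. For the medium in WT with RNase I and for the nucleases (added later) they stayed within 1.5 times. With the replicate block within genotype, added after seeing the data, they were 11 and 16 for the medium in KI and WT and 1 for the interaction; WT numbers share only a number. With libraries of one group and number as a replicate block, also added later, RNase I minus MNase for KI against WT in LIF/2i gave 5. Other blocks moved no count by over 1.5 times. Leaving out single libraries gave 10 to 20 calls for KI against WT in LIF/2i, 5 to 14 in LIF, 3 to 7 for the medium in KI, 2 to 14 in WT, 0 to 2 in WT with RNase I, 26 to 34 for the nucleases, and 0 to 1 for the interaction. The cause of these moves was not tested, beyond fewer counts after thinning and fewer libraries in the omissions. The log2 small over large difference with members weighted equally, also added later, was 0.005 for KI minus WT in LIF/2i (reversed), -0.008 in LIF and -0.145 for the medium in KI with MNase, and 0.069 (reversed) for KI minus WT in LIF and 0 for the medium in KI with RNase I; by structure, that for KI minus WT in LIF with RNase I was 0.002 (reversed). Over single-library omissions the MNase differences were -0.114 to -0.076 and -0.075 to -0.054 for KI minus WT in LIF/2i and LIF, and -0.094 to -0.07 and -0.133 to -0.095 for the medium in KI and WT. With RNase I they were -0.001 to 0.027 and -0.032 to 0.014 for KI minus WT in LIF/2i and LIF, both crossing 0, and -0.09 to -0.044 and -0.059 to -0.03 for the medium. Depth limits Mrpl23 and Mrps36 most, with 68 and 121 counts over all MNase libraries.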

Other observations

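Mrpl35, a central protuberance protein, and Mrpl20, a large subunit protein of bacterial origin, moved in opposite directions in KI replicate 1. Mrpl35 had 54.9, 99.2 and 103 CPM in KI LIF and 75.3, 159 and 147 CPM in KI LIF/2i with MNase, and 61.7 and 93.8 CPM in KI LIF and 60.0 and 134 CPM in KI LIF/2i with RNase I, replicate 1 first in each. Mrpl20 had 97.2 and 36.3 CPM in KI LIF and 102 and 36.9 CPM in KI LIF/2i with RNase I. In WT cells with MNase, Mrpl20 had 104, 90.3 and 104 CPM in LIF and 83.3, 86.0 and 58.0 CPM in LIF/2i, so KI replicate 1 lay above the WT libraries of its medium and the other KI replicates lay below them.

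Mrps36 had 32 and 34 counts in KI LIF and 328 and 65 counts in KI LIF/2i with RNase I, against 9 to 14 and 18 to 23 counts with MNase. These raw counts are not scaled for depth. The RNase I totals were 2285755 and 1965050 in KI LIF and 16359039 and 4366587 in KI LIF/2i. After scaling, the RNase I log2 fold change of LIF against LIF/2i in KI was -0.23, and it did not pass.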
